A study of Mus musculus with 86 samples.

Results

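Mitochondrial ribosomal protein genes, whose mouse symbols begin with Mrpl for the large subunit and Mrps for the small subunit, were examined in gastrocnemius and soleus, a mostly fast and a slower hind limb muscle. Members were all genes with an Mrpl or Mrps symbol followed by a number whose mean level over the 86 libraries was at least 1 CPM, the unit of counts scaled to library size used throughout. The rule took 76 of the 42807 genes listed, 47 with an Mrpl and 29 with an Mrps symbol, and no gene with such a symbol fell under the threshold. The members nearest to it were Mrps6, Mrps22 and Mrps11, with mean levels of 10.7, 12.0 and 12.7 CPM. By the known place of their proteins, 29 belong to the large subunit with a bacterial counterpart, 20 to the large subunit and are particular to mitochondria, 16 to the small subunit with a bacterial counterpart, and 10 to the small subunit and are particular to mitochondria. The last, Mrps36, is named after the small subunit, but its protein is now placed in the oxoglutarate dehydrogenase complex.

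The mitochondrial ribosome makes the few membrane proteins of the respiratory chain that mitochondrial DNA encodes. Its RNAs are mitochondrial, while all of its proteins are encoded in the nucleus, translated in the cytosol and imported, so their genes must be expressed together with the mitochondrial genome. The mammalian particle has lost much of the bacterial ribosomal RNA and gained many proteins of its own. Muscle fibres rich in mitochondria, such as those of the soleus, rely on it for oxidative metabolism.

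RNA was sequenced from male C57BL/6N mice supplied at 10 weeks of age. The non-treated group (NT) received PBS by injection into the abdomen and by gavage, and the DEX group received 25 mg/kg dexamethasone, a synthetic glucocorticoid that causes muscle wasting, daily for 10 days and PBS by gavage. Every one of the 7 treatment groups received the same dexamethasone, so their control is DEX and not NT. Of these, 6 received Jakyak-gamcho-tang (JGT), a water extract of peony and liquorice root, as JGT02, JGT03 or JGT04 (weight ratios of peony to liquorice of 2:1, 1:1 and 1:2) at 100 or 400 mg/kg, and 1 received 200 mg/kg resveratrol (RSV). JGT and resveratrol were given in carboxymethylcellulose while DEX and NT mice were gavaged with PBS alone, so agent and vehicle cannot be told apart. Each group had 5 mice per muscle, except that DEX and JGT04 at 400 mg/kg had 4. The protocol text speaks of 5 groups, whereas the sample labels form 9, and the labels name a single batch. The labels number mice within each group, and p-values measure the spread between those samples. Levels are from whole muscle, in which fewer cells of a type and less RNA per cell cannot be told apart.

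Libraries held 18751740 to 34626901 counts (18.8 M to 34.6 M, median 27.5 M). The muscle labels matched the fibre markers in the controls: summed slow fibre markers lay at 1080 to 1500 CPM in NT gastrocnemius and 24700 to 29500 CPM in NT soleus, and summed fast fibre markers at 144000 to 160000 and 30100 to 40000 CPM. A total of 3 libraries stood apart. In gastrocnemius JGT02_100 mouse 1 and soleus JGT02_100 mouse 5, Myh3, the embryonic myosin of regenerating fibres, reached 1167 and 1028 CPM, against at most 119 CPM in the other libraries. The library labelled soleus JGT02_400 mouse 1 held 14.0 CPM of the slow myosin Myh7 and 25510 CPM of the fast myosin Myh4, while the other 4 of its group held 5476 to 7175 CPM of Myh7, so its fibre genes go against its soleus label. Results are given with these libraries and without them. An earlier examination of these data divided the listed order of libraries into 3 unlabelled sets of 32, 28 and 26. NT and DEX share a set within each muscle, but gastrocnemius and soleus controls lie in different sets, every JGT03, JGT04 and RSV soleus library lies in another set than soleus DEX, and every gastrocnemius JGT04_400 and RSV library in another set than gastrocnemius DEX. Only gastrocnemius JGT04_100 and soleus JGT02_400 are split between sets. What the sets are is not known, and a set term in the model was one of the alternatives. That term is estimated from the split groups alone, and the soleus one holds the library whose fibre genes go against its label.

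The stretches of promoter below belong to members picked by hand among those with differences described later. Others that differed more between the muscles than Mrpl12 (log2 0.48), such as Mrpl41 (0.84) and Mrpl28 (0.82), are not shown. How many of those shown hold a motif therefore does not stand for the differing members. Nuclear respiratory factor 1 (NRF1) and the GA-binding protein (GABP) of the ETS family are the classical activators of nuclear genes for mitochondria. Each runs 5′ to 3′ on the gene's own strand, here the plus strand, from 100 bases before to 30 bases after the start that RefSeq gives on GRCm38.p6. Capitals mark an exact match, on either strand, to GCGCANGCG (NRF1), CCGGAAG (GABP) or AANATGGCG (YY1), and overlapping NRF1 matches on both strands merge in Mrpl9. In order, they are chr3:94443236-94443365 (Mrpl9), chr1:79775918-79776047 (Mrpl44), chr1:42851133-42851262 (Mrps9), chr17:45686249-45686378 (Mrpl14), chr11:120484537-120484666 (Mrpl12), chr9:105053168-105053297 (Mrpl3), chr13:99344686-99344815 (Mrps27) and chr8:22411240-22411369 (Mrps31). NRF1 letters stand in the first 5, GABP letters in Mrpl3, GABP and YY1 letters in Mrps27, and none of these letters in Mrps31.
Mrpl9: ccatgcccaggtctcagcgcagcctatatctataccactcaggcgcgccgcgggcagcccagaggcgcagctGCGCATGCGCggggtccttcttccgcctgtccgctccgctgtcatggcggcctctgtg
Mrpl44: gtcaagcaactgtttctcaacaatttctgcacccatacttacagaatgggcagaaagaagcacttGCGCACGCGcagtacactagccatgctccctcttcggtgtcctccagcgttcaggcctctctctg
Mrps9: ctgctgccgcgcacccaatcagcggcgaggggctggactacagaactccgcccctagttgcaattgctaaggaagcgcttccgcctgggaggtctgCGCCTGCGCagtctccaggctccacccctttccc
Mrpl14: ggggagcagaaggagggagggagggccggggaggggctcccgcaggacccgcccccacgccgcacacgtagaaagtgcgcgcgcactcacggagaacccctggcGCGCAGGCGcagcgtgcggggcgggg
Mrpl12: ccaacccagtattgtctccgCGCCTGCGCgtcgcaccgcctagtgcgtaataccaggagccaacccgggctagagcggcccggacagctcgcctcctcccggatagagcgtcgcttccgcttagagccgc
Mrpl3: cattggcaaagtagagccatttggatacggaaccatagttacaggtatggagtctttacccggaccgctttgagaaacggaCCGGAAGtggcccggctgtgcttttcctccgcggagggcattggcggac
Mrps27: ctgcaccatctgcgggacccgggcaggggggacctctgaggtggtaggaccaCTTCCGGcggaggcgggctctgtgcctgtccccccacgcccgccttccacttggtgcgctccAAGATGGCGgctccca
Mrps31: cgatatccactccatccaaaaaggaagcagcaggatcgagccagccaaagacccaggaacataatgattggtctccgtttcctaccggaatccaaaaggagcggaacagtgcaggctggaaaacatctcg

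In windows from 250 bases before to 50 bases after the start, available for 67 of the 76 members, the GABP letters occurred in 24 members (35.8%), against 9.9% of all 27025 genes with a window and 18.3% of the 10777 of these that passed the filter on low counts. The NRF1 letters occurred in 16 members (23.9%), against 7.0% and 14.1%, and the YY1 letters in 10 members (14.9%), against 2.8% and 5.44%. The letters TCAAGGTCA of the oestrogen-related receptors occurred in 0 members (0.0%, against 0.5% and 0.343%), the E-box CACGTG in 5 (7.46%, against 8.1% and 11.6%), and the glucocorticoid receptor letters ACANNNTGT in 3 (4.48%, against 7.9% and 5.39%). Of the members with a window, 34 held GABP or NRF1 letters and 23 held none of the motifs searched. A match is a description of the letters and not a bound site.

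Per length of merged exons, member levels spanned a wide range in each muscle, with Mrps21 at the top and Mrps35 at the bottom of both. The order depends on that length, 739 bases for Mrps21 and 8631 for Mrps35. It joins all annotated exons of a gene and is not the length used in counting. Without division by length, mean levels over the 86 libraries ran from 10.7 CPM for Mrps6 to 118 CPM for Mrpl42, with Mrps35 at 15.1 CPM. Per kilobase of merged exons, the level in NT gastrocnemius ran from 1.47 to 106 CPM per kb (median 12.4), a 71.9-fold range, and in NT soleus from 2.36 to 94.1 CPM per kb (median 14.6). Mrps21, a small subunit protein, was the highest in both, at 106 ± 5.67 and 94.1 ± 9.72 CPM per kb (SD, n = 5). In gastrocnemius it was followed by Mrpl18 at 42.2 ± 2.44 and Mrpl54 at 40.8 ± 1.26 CPM per kb, which did not differ beyond their spread. In soleus Mrpl14 at 70.9 ± 5.92 and Mrpl18 at 57.9 ± 3.77 CPM per kb came next, and their spreads did not meet. At the low end stood Mrpl19, Mrps10 and Mrps35 in gastrocnemius (2.54 ± 0.188, 2.40 ± 0.0927 and 1.47 ± 0.101 CPM per kb) and Mrps22, Mrps10 and Mrps35 in soleus (3.37 ± 0.403, 2.60 ± 0.0989 and 2.36 ± 0.122 CPM per kb). Replicates were close: the coefficient of variation over NT mice had a median of 5.3% in gastrocnemius (0.94% for Mrpl14 to 10.9% for Mrpl34) and 7.84% in soleus (2.89% for Mrpl10 to 14.3% for Mrps11).

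The summed scaled level of the 76 genes was higher in soleus than in gastrocnemius of non-treated mice, and dexamethasone left the sum within the spread of mice. In NT gastrocnemius the summed level was 2540, 2432, 2427, 2458 and 2330 CPM, and in DEX 2495, 2316, 2469 and 2512 CPM. These ranges overlap almost fully, with means of 2437 ± 74.9 (SD, n = 5) and 2448 ± 89.8 CPM (SD, n = 4). In NT soleus it was 3106, 2927, 2930, 2581 and 2858 CPM, and in DEX 2778, 2975, 2978 and 2401 CPM. The soleus groups overlapped too, at 2880 ± 191 (SD, n = 5) and 2783 ± 271 CPM (SD, n = 4), and every soleus NT library lay above every gastrocnemius NT library. In gastrocnemius the other group means ran from 2202 CPM (JGT02_100, or 2400 ± 66.2 CPM over 4 mice without mouse 1) to 2398 CPM (JGT02_400), all below NT and DEX. Their order was not resolved, since neighbours differed by less than their SDs. In soleus the order from the lowest was JGT02_100 at 2488 CPM (2757 ± 85.3 CPM over 4 mice without mouse 5), DEX, JGT02_400 at 2855, NT, JGT03_100 at 2886, JGT03_400 at 3001, JGT04_100 at 3042, JGT04_400 at 3103 and RSV at 3213 CPM. No neighbours in that order differed beyond their spread. At the ends, every JGT02_100 library (1412 to 2868 CPM, or 2690 to 2868 CPM without mouse 5) lay below every RSV library (2978 to 3499 CPM), which lie in another unlabelled set, while the highest DEX and the lowest RSV library met at 2978 CPM.

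**Figure D1:**
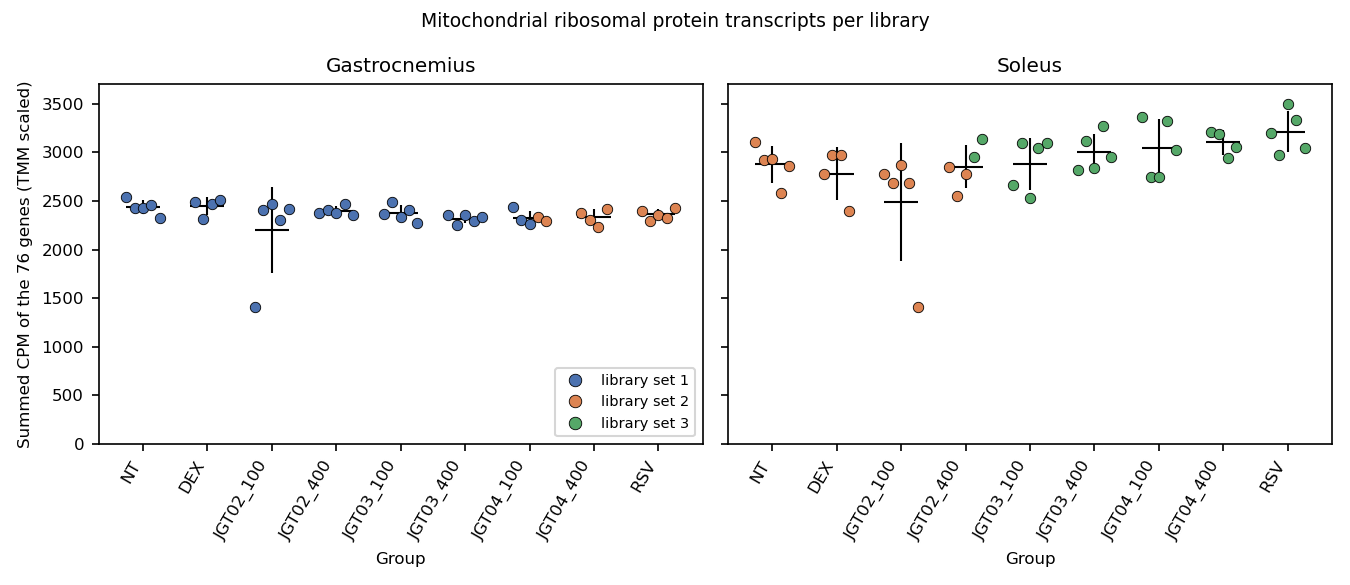
Summed level of the 76 mitochondrial ribosomal protein genes in every library, in TMM-scaled CPM, by group for gastrocnemius and soleus; points are mice, coloured by the unlabelled set, and bars show mean ± SD. The 2 lowest points, 1413 CPM in gastrocnemius and 1412 CPM in soleus, are the JGT02_100 libraries with high Myh3.

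The pair of libraries rich in embryonic myosin had low levels of nearly all members. Their summed levels were 1413 CPM in gastrocnemius, against 2309 to 2466 CPM in the other JGT02_100 mice, and 1412 CPM in soleus, against 2690 to 2868 CPM. In the gastrocnemius library 68 of 76 members (89.5%) lay below every other mouse of the group, with a median log2 difference of -0.66, and in the soleus library 71 (93.4%), with a median of -0.84. Over all genes tested the corresponding shares were 43.6% and 42.1%, with medians of -0.02 and 0.05. Mrpl14 was at 12.4 CPM in the soleus library, against 54.6 to 65.6 CPM in the others, and Mrpl42 at 32.6 CPM in the gastrocnemius library, against 121 to 129 CPM. Mrpl52 went the other way, with 18.7 CPM in that gastrocnemius library against 14.0 to 17.9, and 21.9 CPM in that soleus library against 17.1 to 17.6. All 15 mitochondrially encoded transcripts were below the other mice in both libraries, with median log2 differences of -2.14 and -2.65. Within these groups summed macrophage markers reached 1600 and 1920 CPM (group medians 54.0 and 33.9) and summed fibro-adipogenic markers 3090 and 4960 CPM (medians 442 and 262), and the part of these cells in the low member levels was not tested. In the library labelled soleus JGT02_400 mouse 1, 19 members (25.0%) lay below and 18 (23.7%) above the other mice, against 33.4% and 33.1% of all genes tested.

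Soleus had higher levels of 38 members than gastrocnemius in non-treated mice, and a lower level of 1, Mrpl23. The test was edgeR's quasi-likelihood test over all 86 libraries with Benjamini-Hochberg adjustment over all genes and a threshold of 0.05. The same threshold called 45.8% of all 15327 genes tested, 22.4% higher and 23.4% lower in soleus, so the 39 of 76 members called is close to the background in number, while 38 of the 39 were higher. The median log2 difference was 0.24 over the members and 0.00 over all genes. By class, 11 of 20 large subunit proteins particular to mitochondria were higher in soleus (median 0.31), 14 of 29 large subunit proteins with a bacterial counterpart (median 0.26, Mrpl23 being the one lower), 8 of 10 small subunit proteins particular to mitochondria (median 0.28) and 5 of 16 with a bacterial counterpart (median 0.19).

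Among large subunit proteins, Mrpl14, a conserved protein at the subunit interface, differed most. It stood at 34.3, 35.02, 34.4, 34.5 and 34.8 CPM in NT gastrocnemius and at 71.3, 72.1, 69.3, 58.4 and 65.3 CPM in NT soleus. All 5 soleus values lie well above all 5 gastrocnemius values, with a log2 difference of 0.96 (SE 0.177, edgeR adjusted p = 5.08e-06). Mrpl41, particular to mitochondria, stood at 15.0, 12.6, 15.97, 14.5 and 15.7 CPM in gastrocnemius and at 29.3, 28.6, 26.0, 22.9 and 24.8 CPM in soleus, without overlap (log2 difference 0.84, SE 0.102, edgeR adjusted p = 1.47e-10), and 21.1% of its exon sequence is shared with the gene model Gm6434. Mrpl28 stood at 25.1, 22.4, 22.7, 23.0 and 20.0 CPM in gastrocnemius and at 41.0, 41.6, 41.4, 36.2 and 40.0 CPM in soleus, again without overlap (0.82, SE 0.12, edgeR adjusted p = 2.72e-08). Mrpl46 and Mrpl3, the latter a core protein near the peptidyl transferase centre, followed with log2 differences of 0.60 each, without overlap. Mrpl23, which lies near the exit of the peptide tunnel, was the exception at 47.3, 48.4, 44.0, 44.2 and 45.0 CPM in gastrocnemius against 39.2, 36.1, 36.7, 30.1 and 30.3 CPM in soleus. Its groups do not overlap in the opposite sense (-0.41, SE 0.094, edgeR adjusted p = 2.12e-04), and 14.0% of its exon sequence is shared with other genes, Mrpl23-ps1 among them.

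In the small subunit, Mrps9, a conserved protein of the head, stood at 22.0, 18.9, 19.6, 21.6 and 18.6 CPM in NT gastrocnemius and at 39.4, 36.8, 36.5, 34.5 and 36.1 CPM in NT soleus. The groups do not overlap (log2 difference 0.86, SE 0.119, edgeR adjusted p = 5.59e-09). Mrps35, particular to mitochondria and the lowest member per length in both muscles, was also higher in soleus (0.68, SE 0.092, edgeR adjusted p = 2.70e-09). Of members singled out by role, Mrpl12, which also binds the mitochondrial RNA polymerase, was higher in soleus by 0.48 on the log2 scale, Mrps30 and Mrps18a, which despite their names sit in the large subunit, by 0.42 and 0.50, and Mrps18c by 0.31, Mrps34 by 0.36 and Mrps6 by 0.37. Differences for Mrps12 of the decoding centre (-0.04), Mrpl36 (-0.04), Mrps18b (0.10) and Mrps36 (0.21) did not pass. Reads of several of these may be shared: exons of Mrps34 lie over Mapk8ip3 on the other strand for 63.4% of their length and share 35.6% of their sequence with Nme3, other genes share 32.8% of the sequence of Mrps18c and 21.0% of that of Mrps36, and 30.5% of Mrps18b lies over Gm16279 on the other strand. Exons of Slc5a3 and Gm49711 on the same strand cover 19.9% of Mrps6, and these genes share 18.4% of its sequence. This limit holds for Mrps6 in the comparisons below too.

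Over the mean of all 9 groups, 69 members were called, 66 higher and 3 lower in soleus (median 0.32), against 82.6% of all genes tested (44.8% higher, 37.8% lower; median 0.06). Mrpl14 (1.06), Mrpl28 (0.90) and Mrpl41 (0.89) had the widest log2 differences, and the 3 lower members were Mrps2 (-0.24), Mrpl23 (-0.17) and Mrpl32 (-0.07). When the 3 libraries that stand apart were left out, 55 members were called in non-treated mice (53 higher, 2 lower, against 58.1% of all genes), and 73 over the 9 groups (87.6% of all genes). Muscle and set cannot be told apart in NT and DEX mice. With a set term 16 members passed in non-treated mice, 15 higher and 1 lower, and 20 over the 9 groups, all higher. The share of all genes called with that term is not given here, so these counts are not set against a background. Mrpl14, Mrpl41, Mrpl28, Mrps9, Mrps35, Mrpl46, Mrpl3 and Mrpl23 were among the 16.

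**Figure D2:**
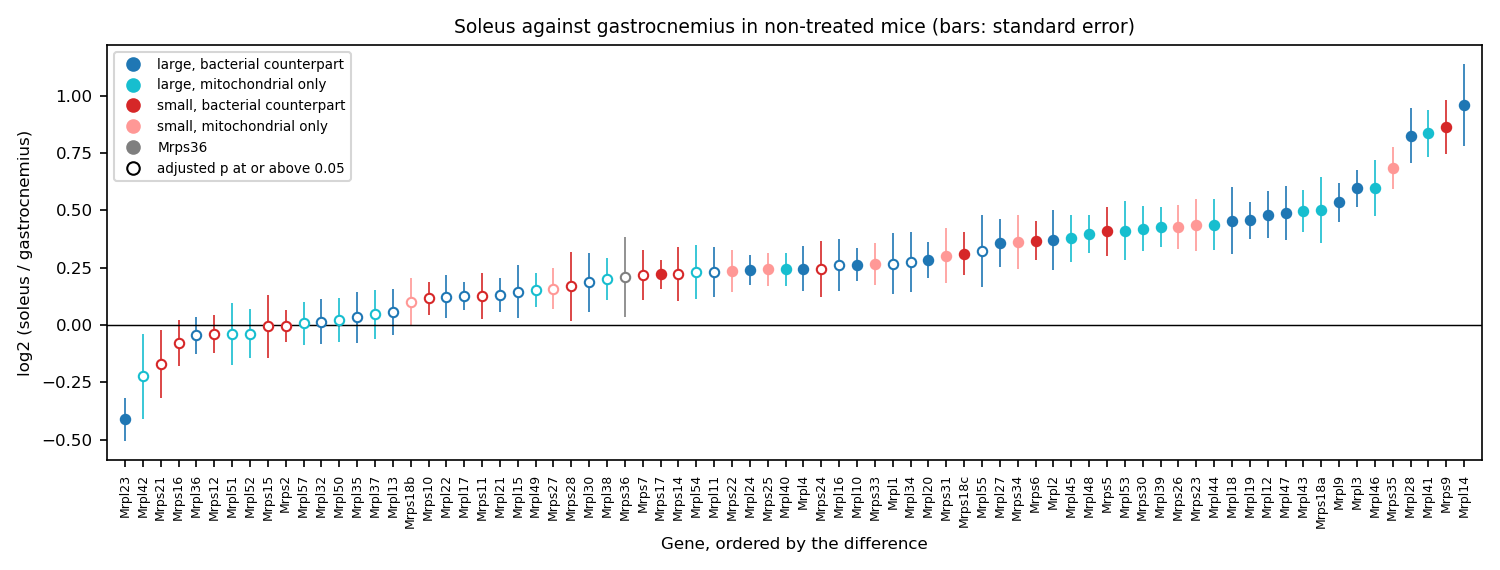
Log2 difference between soleus and gastrocnemius in non-treated mice for each of the 76 members, ordered by size, with standard errors and with members past an adjusted p of 0.05 distinguished from the others. Mrpl14 stands at the upper end with 0.96 and Mrpl23 at the lower end with -0.41.

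Genes that serve the mitochondrial ribosome were called in both directions between the muscles, against 22.4% of all genes tested higher and 23.4% lower in soleus (median 0.00). Higher in NT soleus were 4 of 15 mitochondrially encoded transcripts (median log2 difference 0.42, with mt-Co3 at 0.93 and mt-Atp6 at 0.86), 5 of 15 translation factors (median 0.15, with the elongation factor Tsfm at 0.65) and 10 of 27 genes of ribosome assembly and rRNA modification (median 0.14, with the rRNA methyltransferases Mettl15 at 1.11 and Mrm1 at 0.92, and with 1, the assembly factor Malsu1, lower at -0.44). Of the mitochondrial aminoacyl-tRNA synthetases, which charge tRNAs with amino acids, 8 of 22 were higher and 3 lower (median 0.07). Of the genes that transcribe and maintain mitochondrial DNA, 1 of 9 was higher and 3 were lower (median -0.11, with the nuclease Mgme1 at -0.82). Regulators of mitochondrial genes gave 5 higher and 2 lower of 15, led by the oestrogen-related receptors Esrrb (2.81) and Esrrg (2.11) and the coactivator Ppargc1b (1.06), with the corepressor Nrip1 at -0.92 and the coactivator Pprc1 at -0.56. Of 5 mitoribosome proteins under other symbols, Gadd45gip1 (0.79) and Ptcd3 (0.27) were higher. With those 3 libraries left out, 10 of the mitochondrially encoded transcripts were higher in soleus, with 58.1% of all genes called. In the fit with a set term, 2 of these transcripts, 1 translation factor, 7 assembly genes and 4 synthetases were higher, and 1 gene of mitochondrial DNA transcription and maintenance was lower. The share of all genes called in that fit is not given here, so no background stands beside these counts. By promoter letters the members' median log2 difference was 0.25 with and 0.25 without the GABP letters, 0.32 with and 0.24 without the NRF1 letters, and 0.14 with and 0.26 without the YY1 letters.

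Dexamethasone lowered 10 members in soleus and raised none past the threshold. The threshold called 20.8% of all 14811 genes tested in soleus, 11.3% higher and 9.47% lower, so the 10 members called lower (13.2% of 76) stand near the background for that direction. The median log2 change was -0.04 over the members and 0.05 over all genes. The 10 were spread over the particle: 4 of 20 large subunit proteins particular to mitochondria (Mrpl44, Mrpl39, Mrpl50 and Mrpl38, class median -0.12), 3 of 29 with a bacterial counterpart (Mrpl9, Mrpl3 and Mrpl10, median -0.04), 2 of 10 small subunit proteins particular to mitochondria (Mrps31 and Mrps27, median -0.08) and 1 of 16 with a bacterial counterpart (Mrps6, median 0.00).

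Mrps31, a small subunit protein particular to mitochondria (chromosome 8, 22411361 to 22429665, plus strand, gene ENSMUSG00000031533), fell most. It stood at 23.3, 22.4, 21.4, 18.3 and 20.4 CPM in NT soleus and at 14.3, 16, 14.9 and 12.6 CPM in DEX soleus. All 4 DEX values lie below all 5 NT values (log2 change -0.55, SE 0.148, edgeR adjusted p = 0.00843). Mrps27, a pentatricopeptide repeat protein of the small subunit (chromosome 13, 99344786 to 99415562, plus strand), stood at 28.8, 25.9, 26.7, 26.3 and 26.9 CPM in NT and at 21.9, 19.5, 20.6 and 20.2 CPM in DEX. The groups do not overlap (-0.39, SE 0.114, edgeR adjusted p = 0.0154), and 24.2% of its exon sequence lies over exons of the antisense gene 6430562O15Rik, with which reads would mix if strand was not used in counting.

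Mrpl9, a large subunit protein with a bacterial counterpart (chromosome 3, 94443318 to 94451130, plus strand, gene ENSMUSG00000028140), had the smallest p of the members. It stood at 45.6, 41.8, 44.0, 44.3 and 43.4 CPM in NT soleus and at 33.1, 32.5, 33.6 and 29.9 CPM in DEX soleus, without overlap (-0.44, SE 0.1, edgeR adjusted p = 0.00252). Mrpl3 (chromosome 9, 105053239 to 105079888, plus strand) stood at 44.3, 43.6, 45.1, 41.6 and 45.2 CPM in NT and at 34.8, 33.5, 38.0 and 27.0 CPM in DEX. Its groups do not overlap either (-0.40, SE 0.097, edgeR adjusted p = 0.00423), and DEX mouse 4 is the lowest. Mrpl10, a protein of the stalk base that binds Mrpl12, changed by -0.29 (edgeR adjusted p = 0.0128).

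Mrpl44, which resembles ribonuclease III and lies near the tunnel exit (chromosome 1, 79776018 to 79781445, plus strand), stood at 27.7, 27.2, 27.2, 26.8 and 29.0 CPM in NT soleus and at 21.4, 21.3, 21.4 and 18.2 CPM in DEX soleus, without overlap (-0.42, SE 0.13, edgeR adjusted p = 0.0199). Mrpl39 stood at 23.9, 24.2, 26.9, 24.6 and 25.3 CPM in NT and at 19.2, 21.1, 21.8 and 18.2 CPM in DEX, also without overlap (-0.31, SE 0.108, edgeR adjusted p = 0.0361). Mrpl50 (-0.31), Mrpl38 (-0.30) and Mrps6 (-0.24) were nearer to the threshold, and only the groups of Mrps6 overlapped. Leaving out soleus DEX mouse 4 left 5 members called, Mrpl9, Mrpl3, Mrps31, Mrpl10 and Mrps27, which also held without each other mouse of NT or DEX.

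No member was called higher. Mrpl52, Mrpl54 and Mrps34 had log2 changes of 0.35, 0.30 and 0.25, which did not pass. Of those singled out by role, Mrpl12 (0.00), Mrps12 (0.02), Mrps36 (-0.01), Mrpl36 (-0.09), Mrps18a (0.23), Mrps18b (0.17), Mrps18c (0.16) and Mrps30 (-0.18) did not pass. Without the 3 libraries that stand apart, none of which is in NT or DEX and which enter through the shared estimate of spread, 21 members were called, 17 lower and 4 higher, against 43.2% of all genes (19.2% lower, 24% higher). The 4 higher were Mrpl52 (0.36), Mrpl54 (0.31), Mrps34 (0.26) and Mrpl23 (0.23).

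**Figure D3:**
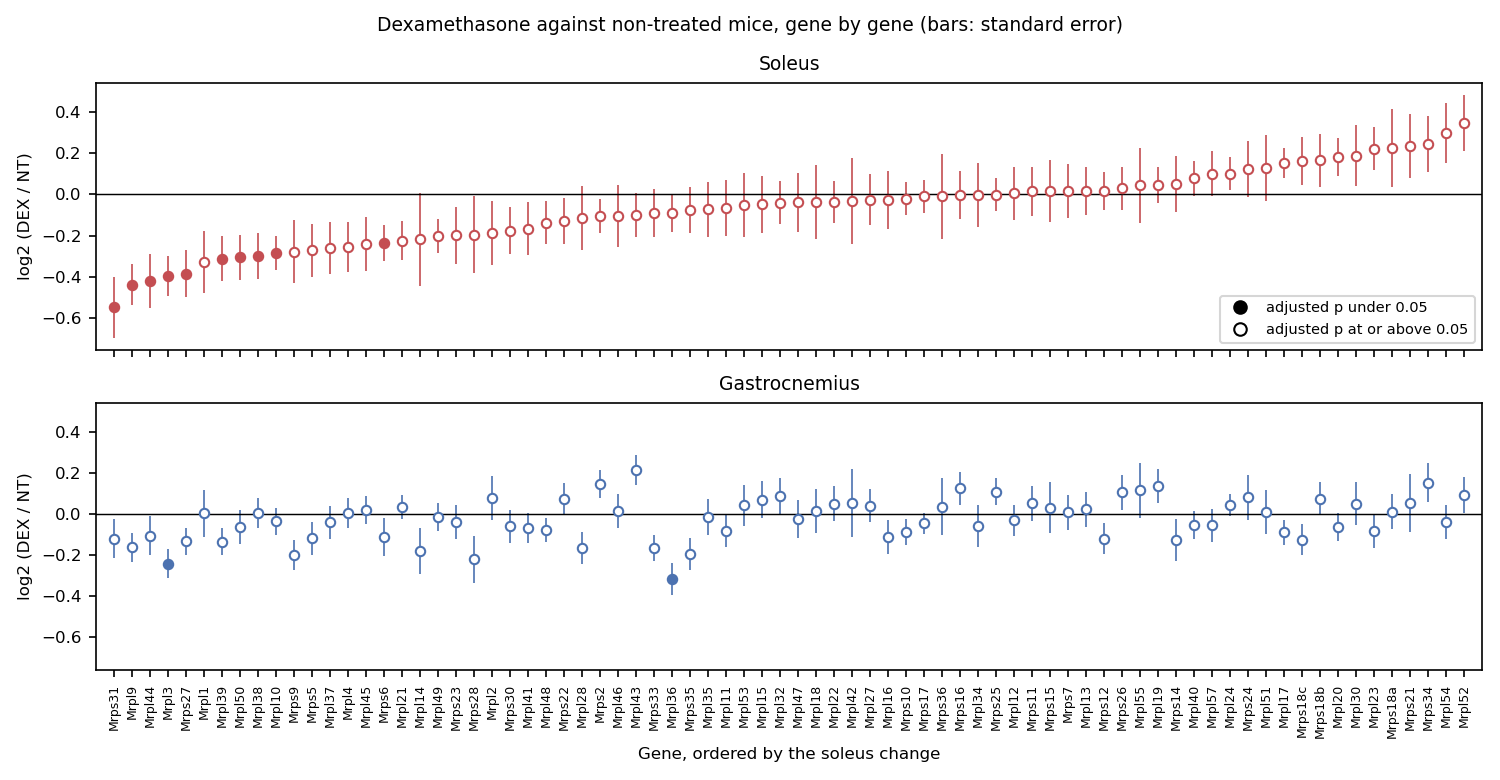
Log2 change from non-treated to DEX for the 76 members in gastrocnemius and in soleus, with genes in the order of the soleus change in each panel and bars showing standard errors. Members past an adjusted p of 0.05 are marked, 2 in gastrocnemius and 10 in soleus, all of them lower in DEX.

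Some of the genes that act with the mitochondrial ribosome were also lower in soleus under dexamethasone, where 9.47% of all genes tested were lower and the median over all genes was 0.05. Of the aminoacyl-tRNA synthetases, 10 of 22 fell and none rose (median log2 change -0.32), among them Mars2 (-0.52) and the amidotransferase subunit Qrsl1 (-0.48). Of translation factors, 7 of 15 fell (median -0.29), led by Taco1 (-1.47), the translational activator of cytochrome oxidase subunit 1, the mRNA-binding Lrpprc (-0.79) and the elongation factor Gfm1 (-0.72). Of assembly and rRNA modification genes, 10 of 27 fell (median -0.25), among them Mettl15 (-0.73), the pseudouridine synthase Trub2 (-0.55) and the GTPase Gtpbp10 (-0.48). Ptcd3, a small subunit protein under another symbol, fell by 0.47 on the log2 scale, and 3 of 9 genes of mitochondrial DNA transcription fell, Tefm (-0.45), Tfam (-0.43) and Polrmt (-0.32). By edgeR 0 of the 15 mitochondrially encoded transcripts passed (median 0.04, with 0 at an unadjusted p under 0.05 and 0 by DESeq2), and of 15 regulators Gabpa, the DNA-binding subunit of GABP (-0.38), and Ppard (-0.31) fell. Without the 3 libraries that stand apart, 15 synthetases, 10 translation factors, 13 assembly genes and 5 genes of mitochondrial DNA transcription fell (0, 1, 1 and 1 rose), and 2 mitochondrially encoded transcripts rose and 2 fell, against 19.2% of all genes lower and 24% higher. The members' median change was -0.02 with and -0.07 without the GABP letters, and -0.04 both with and without the NRF1 letters.

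Markers of other cells were summed in the same soleus groups. Adipocyte markers were 211 to 243 CPM in NT and 227 to 649 CPM in DEX (5 of 5 detected), Schwann cell markers 62.5 to 130 and 57.5 to 605 CPM (6 of 6), macrophage markers 27.4 to 57.9 and 32.1 to 297 CPM (5 measured of 6 listed), endothelial markers 259 to 348 and 331 to 429 CPM (7 of 7), red blood cell markers 429 to 591 and 552 to 736 CPM (5 of 5) and fibro-adipogenic markers 380 to 495 and 300 to 382 CPM (5 of 5). Slow fibre markers were 24700 to 29500 CPM in NT and 17300 to 31400 CPM in DEX. The ranges of NT and DEX overlap in each of these 7 lists, and no measured marker was at 0. Group medians, NT then DEX, were 214 and 591 CPM for adipocyte and 77.6 and 331 CPM for Schwann cell markers. They were 35.9 and 45.7 CPM for macrophage, 324 and 386 CPM for endothelial and 542 and 683 CPM for red blood cell markers. For fibro-adipogenic markers they were 453 and 323 CPM, and for slow fibre markers 26900 and 25900 CPM. Overlap of ranges thus does not show that the groups held the same cells. The part of these cells in the lower member levels was not tested.

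In gastrocnemius dexamethasone changed 2 members past the threshold, both lower, against 8.38% of all 14484 genes tested (4.31% higher, 4.07% lower), a smaller share than the background. The median log2 change was -0.02 over the members and -0.01 over all genes. Mrpl36, the small zinc-binding protein of the large subunit (chromosome 13, 73328513 to 73332178, plus strand), stood at 17.7, 18.6, 17.3, 16.3 and 17.4 CPM in NT and at 14.8, 13.3, 13.9 and 14.6 CPM in DEX. The groups do not overlap (log2 change -0.32, SE 0.077, edgeR adjusted p = 0.00620), and the call held without each mouse of the groups in turn. Mrpl3 stood at 30.2, 29.5, 30.8, 28.8 and 26.2 CPM in NT and at 27.4, 23.4, 21.7 and 27.0 CPM in DEX. Here the lowest NT value lies below 2 DEX values (-0.24, SE 0.069, edgeR adjusted p = 0.0213), and the call was lost without DEX mouse 2, DEX mouse 3 or NT mouse 3.

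Mrpl43 had the next smallest p, with 28.8, 26.0, 28.6, 26.6 and 23.7 CPM in NT gastrocnemius and 31.3, 30.3, 33.8 and 30.2 CPM in DEX. All DEX values are above all NT values, but the difference did not pass (0.21, SE 0.073, edgeR adjusted p = 0.0618), and 33.4% of its exon sequence lies over exons of Twnk on the other strand. Changes for Mrpl12 (-0.03), Mrps12 (-0.12), Mrps18a (0.01), Mrps18b (0.07), Mrps18c (-0.12), Mrps30 (-0.06), Mrps34 (0.15), Mrps6 (-0.11) and Mrps36 (0.04) did not pass. After the 3 libraries that stand apart were removed, 9 members were called, 8 lower and 1, Mrpl43, higher, against 26.4% of all genes tested. Few of the other genes of mitochondrial translation passed in this muscle: 1 synthetase rose (Kars, 0.23) and 1 fell (Cars2, -0.26) of 22, 2 of 27 assembly genes fell (Trub2, -0.31, and Wbscr16, -0.30), and 0 of 15 translation factors, 0 of 9 genes of mitochondrial DNA transcription and 0 of 15 mitochondrially encoded transcripts passed by edgeR or by DESeq2, with 3, 0 and 1 at an unadjusted p under 0.05. Nrip1, a corepressor of oxidative genes, rose by 1.00 on the log2 scale. Summed fibro-adipogenic markers were 649 to 852 CPM in NT and 374 to 476 CPM in DEX, adipocyte markers 135 to 168 and 183 to 239 CPM, endothelial markers 251 to 284 and 212 to 233 CPM and red blood cell markers 228 to 281 and 288 to 403 CPM. NT and DEX do not overlap in any of these 4 lists, and their part was not tested. They do overlap in the other lists summed, those of slow, fast and regenerating fibres and of satellite, macrophage, Schwann and tendon cells.

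**Figure D4:**
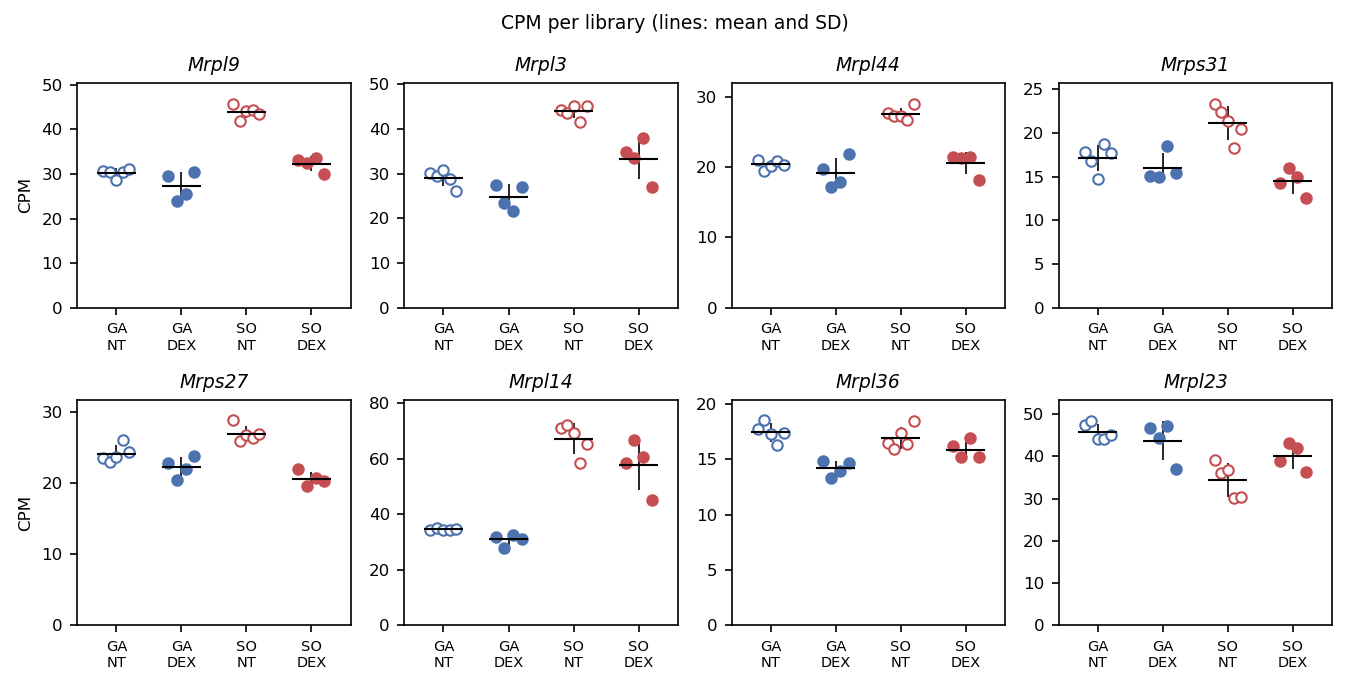
CPM of single members in each NT and DEX library of gastrocnemius (GA) and soleus (SO), with points for mice on axes that start at 0. Mrpl9 shows 41.8 to 45.6 CPM in soleus NT and 29.9 to 33.6 CPM in soleus DEX, without overlap.

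The difference between the muscles in their response was itself tested. By edgeR's interaction contrast 0 members passed, against 8.36% of all 15327 genes tested, with 10 members at an unadjusted p under 0.05 and 2 called by DESeq2, so the dexamethasone change of no member is shown to differ between muscles in this fit. The smallest adjusted p were those of Mrps2 (log2 difference -0.27, SE 0.105, edgeR adjusted p = 0.0922), Mrpl10 (-0.27, edgeR adjusted p = 0.102) and Mrps31 (-0.45, SE 0.181, edgeR adjusted p = 0.108). With the 3 libraries that stand apart left out, 18 members passed, 17 of them with the lower change in soleus, against 33.6% of all genes, and the edgeR adjusted p of Mrps31 was 7.86e-04.

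The 7 treatments in soleus were each compared with the same 4 DEX libraries, so their results are not independent of each other, and soleus DEX mouse 4 had the lowest summed level of its group. For the treatments in either muscle the medians are those of the members, and the median over all genes is not given beside them. Resveratrol gave 13 members called, 12 higher and 1 lower, against 12.7% of all genes (5.11% higher, 7.56% lower), with a median log2 difference of 0.20. Mrps16, a small subunit protein with a bacterial counterpart, stood at 22.0, 24.1, 26.6 and 17.1 CPM in DEX and at 28.8, 31.9, 36.2, 35.3 and 30.4 CPM in RSV. All RSV values lie above all DEX values (0.53, SE 0.117, edgeR adjusted p = 0.00279). Mrpl11, the protein of the GTPase-associated centre, stood at 35.3, 37.9, 35.6 and 28.1 CPM in DEX and at 52.5, 43.7, 53.0, 46.1 and 42.5 CPM in RSV, without overlap (0.47, SE 0.137, edgeR adjusted p = 0.0200). Mrpl9, one of those lower in DEX than in NT, stood at 44.1, 44.3, 48.4, 45.1 and 39.8 CPM in RSV, above all of its DEX values (0.46, SE 0.1, edgeR adjusted p = 0.00286).

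Mrps2, a small subunit protein, was the member lower with resveratrol, at 16.5, 13.2, 14.5, 14.3 and 12.9 CPM against 17.95, 16.04, 17.6 and 19.9 CPM in DEX. These groups overlap, since RSV mouse 1 lies above DEX mouse 2 (-0.33, SE 0.083, edgeR adjusted p = 0.00850). By class, 5 of 29 large subunit proteins with a bacterial counterpart, 2 of 20 particular to mitochondria, 4 of 16 small subunit proteins with a bacterial counterpart and 1 of 10 particular to mitochondria were higher. Leaving out soleus DEX mouse 4 left 2 members called, RSV mouse 3 left 3 and RSV mouse 4 left 5. Removing instead the 3 libraries that stand apart gave 32 members called, 31 higher, against 36.7% of all genes (16.3% higher).

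Of the other lists, against the same 5.11% of all genes higher and 7.56% lower, 5 of 22 synthetases were higher with resveratrol (among them Lars2 1.97 and Pars2 0.63), 5 of 27 assembly genes (Mtg1 0.55, Mpv17l2 0.43, Ftsj2 0.42), 2 of 15 mitochondrially encoded transcripts (mt-Co3 1.09, mt-Co2 0.91) and 1 of 15 translation factors (the membrane insertase Oxa1l, 0.45). Of 15 regulators 3 were lower (Myc -2.15, Gabpa -0.24, Nrf1 -0.24). In the same groups, summed fibro-adipogenic markers were 300 to 382 CPM in DEX and 182 to 244 CPM in RSV, and tendon cell markers 47.1 to 78.1 and 28.7 to 45.0 CPM. Neither of these lists overlaps between DEX and RSV. Endothelial markers were 331 to 429 and 223 to 338 CPM and red blood cell markers 552 to 736 and 650 to 1120 CPM, which overlap, as do the other lists summed. The part of these cells was not tested. All 5 RSV libraries lie in another unlabelled set than the DEX libraries. With a set term 0 members and 0 genes of these lists were called by edgeR, and 0 members had an unadjusted p under 0.05. The members' median was then 0.04, so resveratrol and set cannot be told apart here. The term itself rests on the few JGT02_400 libraries, including mouse 1, whose fibre genes go against its soleus label.

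The JGT extracts gave fewer calls in soleus. JGT03 at 100 mg/kg gave 4 members, all higher (8.49% of all genes called, 3.42% higher, median 0.07), namely Mrpl37 (0.40), Mrpl10 (0.36, edgeR adjusted p = 0.00558), Mrpl21 (0.33) and Mrpl9 (0.32). JGT04 at 100 mg/kg gave 4, all higher (8.95% of all genes called, 3.36% higher, median 0.13), namely Mrpl9 (0.42, edgeR adjusted p = 0.00736), Mrps16 (0.36), Mrps6 (0.34) and Mrpl10 (0.30). JGT04 at 400 mg/kg gave 3 higher and 1 lower (4.58% of all genes called, 1.57% higher and 3.01% lower, median 0.15), Mrps16 (0.46), Mrps6 (0.40, edgeR adjusted p = 0.00839) and Mrpl9 (0.37) against Mrps2 (-0.32). Mrpl9 was thus at 38.8 to 42.4 CPM with JGT03 and 39.8 to 50.02 CPM with JGT04 at 100 mg/kg and at 40.7 to 42.4 CPM with JGT04 at 400 mg/kg, all above the 4 DEX values, which these comparisons share.

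JGT03 at 400 mg/kg gave 0 members by edgeR (3.06% of all genes), with 13 at an unadjusted p under 0.05 and 2 called by DESeq2. JGT02 at 400 mg/kg gave 0 by edgeR and 0 by DESeq2, against 17.1% of all genes, with 9 at an unadjusted p under 0.05. JGT02 at 100 mg/kg gave 1 (8.82% of all genes called, 4.02% lower, median -0.14), Mrpl19, at 15.4, 15.4, 15.4, 14.9 and 13.04 CPM against 20.0, 18.9, 21.6 and 17.9 CPM in DEX. All 5 values are below all DEX values (-0.40, edgeR adjusted p = 0.00393), with or without mouse 5, and 36.0% of the exon sequence of Mrpl19 lies over exons of Gcfc2 on the other strand. The median of -0.14 includes mouse 5, whose members had a median log2 difference of -0.84 from the other mice of its group. With a set term edgeR called 0 members in each of the JGT03 and JGT04 comparisons, with 0 at an unadjusted p under 0.05; their libraries lie in another set than DEX. With the 3 libraries that stand apart left out, JGT02 at 100 and 400 mg/kg gave 10 and 6 members (35.7% and 30.3% of all genes, the 6 all higher against 13.6%). JGT03 at 100 and 400 mg/kg then gave 10 and 12 (30% and 27.5% of all genes) and JGT04 16 and 17 (31.2% and 22.2%), all but 1 or 2 of them higher.

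A joint F test over the 8 dexamethasone-treated soleus groups called 20 members, against 31.6% of all genes (35 and 50.1% without the 3 libraries that stand apart). Mrpl24 (edgeR adjusted p = 4.78e-04), Mrps18c (6.55e-04) and Mrps2 (0.00142) had the smallest p. Mrpl24 was at 32.8 to 38.3 CPM in DEX, 28.4 to 32.7 in JGT02_100 and 39.6 to 45.0 in RSV, and Mrps18c at 19.7 to 29.1, 14.5 to 23.0 and 30.2 to 33.4 CPM, so each was lowest in JGT02_100 of these groups and highest in RSV. Exons of Rrnad1 on the other strand cover 26.3% of Mrpl24. With a set term 0 passed by edgeR and 4 had an unadjusted p under 0.05, with edgeR adjusted p of 0.0935 for Mrpl24, 0.216 for Mrps18c and 0.295 for Mrps2.

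**Figure D5:**
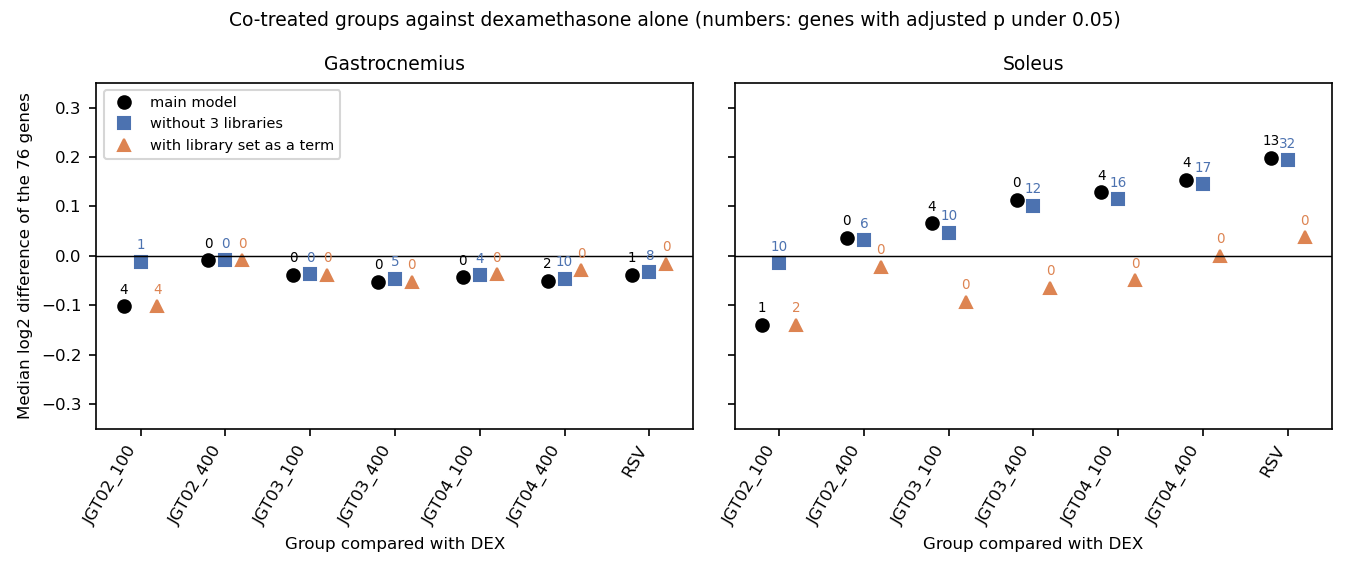
Median log2 difference of the 76 members from DEX for each of the 7 treatments, in gastrocnemius and in soleus, with all libraries, without the 3 libraries that stand apart and with a set term. In soleus the resveratrol median is 0.20 with all libraries and 0.04 with a set term, which rests there on the JGT02_400 libraries alone.

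In gastrocnemius, where the treatments again share 4 DEX libraries, few members passed. JGT02 at 100 mg/kg gave 4, all lower (10.2% of all genes, 1.48% lower, median -0.10). That median includes mouse 1, whose members had a median log2 difference of -0.66 from the other mice of its group. Mrpl12 led with 33.7, 50.4, 49.3, 48.7 and 47.3 CPM against 60.3, 54.4, 55.5 and 63.2 CPM in DEX, without overlap (-0.33, SE 0.074, edgeR adjusted p = 0.0134). The others were Mrps11 (-0.30), Mrps18a (-0.27) and Mrpl45 (-0.23). Without mouse 1, one of the libraries that stand apart, 1 member was called, and without all 3 of these libraries only Mrpl12 (-0.25, edgeR adjusted p = 0.0464, against 0.963% of all genes, 0.367% lower).

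Mrpl45, a large subunit protein of the membrane-facing side by the tunnel exit, was lower in several treated groups. It stood at 44.2, 39.3, 40.0 and 44.8 CPM in DEX, at 35.6, 33.9, 33.9, 32.2 and 32.8 CPM in RSV and at 35.8, 34.8, 33.6 and 34.6 CPM with JGT04 at 400 mg/kg. Neither treated group overlaps DEX, and all libraries of both lie in another unlabelled set than DEX, so treatment and set cannot be told apart. The log2 difference was -0.32 for RSV (edgeR adjusted p = 0.00701), where it was the 1 member called (1.37% of all genes, 0.711% lower), and -0.27 for JGT04 at 400 mg/kg (edgeR adjusted p = 0.0318), where Mrpl17 was higher (0.24, edgeR adjusted p = 0.0391) as the other of 2 members called (2.04% of all genes, 1.06% higher and 0.98% lower). Other genes share 11.6% of the exon sequence of Mrpl45. Without DEX mouse 4 neither call on Mrpl45 held, and that for JGT04 at 400 mg/kg was also lost without DEX mouse 1 or any 1 of the 4 treated mice. The call on Mrpl17 was lost without any 1 library of its comparison other than JGT04_400 mouse 3. With a set term the log2 difference of Mrpl45 was -0.36 for RSV (edgeR adjusted p = 0.713) and -0.32 for JGT04 at 400 mg/kg (edgeR adjusted p = 0.859), and edgeR passed 0 members in either comparison, with 4 and 2 at an unadjusted p under 0.05.

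JGT02 at 400 mg/kg, JGT03 at 100 and at 400 mg/kg and JGT04 at 100 mg/kg gave 0 members in gastrocnemius by edgeR and by DESeq2, against 0.808%, 0.0207%, 0.677% and 1.38% of all genes. At an unadjusted p under 0.05 the counts were 0, 3, 5 and 5. The F test over the 8 dexamethasone-treated groups called 2 members (13.2% of all genes), Mrpl45 (edgeR adjusted p = 0.0164) and Mrpl12 (0.0387), and Mrps18c came next (0.0951). Leaving out the 3 libraries that stand apart, 10 members were called for JGT04 at 400 mg/kg (9 lower, 11.3% of all genes) and 5 in the F test (14.6%). All of the 8 members for RSV (9.47% of all genes, 4.89% lower), the 5 for JGT03 at 400 mg/kg (6.49%, 3.2% lower) and the 4 for JGT04 at 100 mg/kg (9.36%, 4.79% lower) were lower.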

How the data were processed

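Messenger RNA libraries were made from total RNA of gastrocnemius and soleus with a directional kit and sequenced as paired reads, per the labels' protocols. The authors deposited gene-level expected counts made with RSEM. The submitters' processing notes name FastQC 0.11.9, Trim Galore 0.6.5, STAR 2.7.3a, RSEM 1.3.3 and the build GRCm38. The annotation and the strand setting of counting are not given in the sources used here. Of all values 92.0% were whole, and of values above 0 18.5% were not. They were rounded to whole numbers.

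Genes passing edgeR's filterByExpr were tested (14484 in gastrocnemius, 14811 in soleus, 15327 over both) with edgeR 4.0.16 in R 4.3.3, TMM scaling, the quasi-likelihood test over all groups of a muscle, and Benjamini-Hochberg adjustment over all genes, with a threshold of 0.05. Levels are TMM-scaled CPM, and the membership rule used unscaled CPM. DESeq2 1.42.0 was an alternative, beside its size factors, no filter, a set term, the replicate block, leaving out libraries, and fits of only the groups compared. On simulated counts for soleus DEX against NT (14729 genes), 10% of genes changed 1.25-fold and 76% of those changed 2-fold were recovered. For gastrocnemius these shares were 30% and 84%, and for the muscles in NT mice 20% and 90%. Without the 3 libraries that stand apart they were 36% and 96% in soleus and 54% and 100% in gastrocnemius. The changed genes were drawn from all genes above a minimum mean count, so the shares are not those of the members.

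Members and lists were chosen with earlier results of these data known. Named were, for the comparisons of dexamethasone and of the muscles, up to 6 called members per direction by size, or the 3 with the smallest p where fewer than 3 passed, and elsewhere up to 3 per direction, beside a panel chosen by role and the extremes per length. Other called members were named after their values were seen, as were Mrpl42, Mrpl52, Mrpl54 and the libraries' Mrpl14. Exon overlaps and shared 31-base stretches were counted on GENCODE vM21, and promoters came from RefSeq. No libraries were identical, and no column was left unused. The labels give no link between numbers and mice across groups. Gastrocnemius and soleus libraries of the same group and number correlated above 0.1 in 10 of 43 pairs, and their own number was the best match in 11. In JGT04_100 it was the best match for every pair, with correlations of 0.057 to 0.148, and in no other group was it so. The highest correlation, 0.563, was in JGT02_100, a group that holds libraries that stand apart. Numbers were not taken to pair samples, but this check cannot exclude that both muscles came from the same mice.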

Additional observations from a re-analysis of the deposited data

Results flagged for a closer look

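Single libraries that lay far from the rest of their group, by Dixon's test at the 95% level, were looked for in 122 groups of values, 18 of summed levels and 104 of 26 single members in NT and DEX, and 9 were found. Chance gives about 1 in 20 groups, and the 7 found among the 104 groups of single members are near that. The summed level was low in gastrocnemius JGT02_100 mouse 1 (1413 CPM) and soleus JGT02_100 mouse 5 (1412 CPM), the libraries with high Myh3. In gastrocnemius DEX, mouse 4 was apart for Mrpl39 (15.7 CPM) and Mrps2 (23.4 CPM), mouse 3 for Mrps31 (18.5 CPM) and mouse 1 for Mrps35 (13 CPM). In soleus NT, mouse 2 was apart for Mrps30 (26.7 CPM), and in soleus DEX mouse 4 was apart for Mrpl44 (18.2 CPM) and Mrps9 (23.2 CPM).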

How the results depend on the processing

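Counts of members called, with all libraries and edgeR, moved by more than 1.5 times under some alternatives. The share of all genes called moved too. For soleus DEX against NT it was 20.8% with all libraries and 43.2% without the 3 libraries that stand apart. For the other alternatives, and without single libraries, that share is not given here. Those counts are not set against a background, and a move in them is not a result about the members. Without the 3 libraries that stand apart, counts for gastrocnemius were 9 for DEX against NT, 1 for JGT02_100, 5 for JGT03_400, 4 for JGT04_100, 10 for JGT04_400, 8 for RSV and 5 in the F test. For soleus they were 21 for DEX against NT, 10, 6, 10, 12, 16, 17 and 32 for JGT02_100, JGT02_400, JGT03_100, JGT03_400, JGT04_100, JGT04_400 and RSV, and 35 in the F test, and 18 in the test of the difference in dexamethasone change. With a set term they were 0 for gastrocnemius JGT04_400, RSV and F test, 2 for soleus JGT02_100, 0 for soleus JGT03_100, JGT04_100, JGT04_400, RSV and F test, and 16 and 20 for the muscles in NT mice and over 9 groups. With a set term and without the 3 libraries, an alternative chosen after seeing the data, they were 11 for gastrocnemius DEX, 1 for JGT02_100, 4 for JGT03_400, 4 for JGT04_100, 0 for JGT04_400 and 0 in the F test, 23 for soleus DEX, 10 for JGT02_100, 0 for JGT03_100, JGT04_100, JGT04_400 and RSV, 8 in the F test, 30 for the muscles over 9 groups and 19 for the difference in change. With no filter on low counts they were 1, 2, 0 and 0 for gastrocnemius DEX, JGT02_100, JGT04_400 and F test, and 6, 1, 2 and 6 for soleus DEX, JGT03_100, JGT04_400 and RSV. With only the groups compared they were 6, 0, 1, 1 and 4 for gastrocnemius DEX, JGT02_100, JGT03_400, JGT04_100 and RSV, 0, 2 and 0 for soleus JGT02_100, JGT03_400 and JGT04_400, and 11 for the difference in change. DESeq2 gave 3 for gastrocnemius RSV, 2 for soleus JGT02_100, 2 for soleus JGT03_400 and 2 for the difference in change, and its size factors in edgeR gave 1 for the last.

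The labels do not say whether a mouse number names the same animal in both muscles, and the main tests treat the libraries as independent. The replicate block was not the same in all fits. Within a muscle it was the bare mouse number, shared by mice of different groups, and says nothing on animals shared between muscles. Only the comparisons of both muscles took group and number together as a mouse. With the block the count was 1 for gastrocnemius JGT02_100, 1 for the gastrocnemius F test and 1 for soleus JGT02_400. It was within 1.5 times of the count without the block in the other 18 comparisons, those of both muscles among them.

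Leaving out each library of the groups compared, counts in gastrocnemius ranged from 1 to 3 for DEX, 0 to 10 for JGT02_100, 0 to 2 for JGT04_400, 0 to 2 for RSV and 0 to 5 in the F test. In soleus they ranged from 5 to 11 for DEX, 1 to 7 for JGT02_100, 0 to 2 for JGT02_400, 1 to 2 for JGT03_100, 0 to 1 for JGT03_400, 1 to 6 for JGT04_100, 0 to 4 for JGT04_400, 2 to 14 for RSV and 18 to 33 in the F test, from 35 to 42 and 66 to 71 for the muscles in NT mice and over 9 groups, and from 0 to 2 for the difference in change.

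Of 50 calls on named members, 2 were lost without the 3 libraries, 25 with a set term, 11 with no filter, 5 with the replicate block, 1 with DESeq2, 2 with its size factors, 13 of the 44 that could be fitted with only the groups compared, and 21 without at least 1 library. Calls that turned, both with a set term and without the 3 libraries, were Mrpl21 in soleus JGT03_100 (-0.00) and Mrps16 in soleus JGT04_100 (-0.055). Changes near 0 that did not pass also turned. Mrpl12 in soleus DEX was -0.00 with size factors and with DESeq2 and -0.017 with the block, and its difference in change was -0.019 without the 3 libraries, with and without a set term, -0.026 with size factors and with DESeq2, -0.001 with no filter and -0.011 with only the groups compared. Without 1 library, ranges that cross 0 were -0.040 to 0.051 for Mrps18a and -0.009 to 0.107 for Mrps36 in gastrocnemius DEX, -0.072 to 0.088 for Mrpl12, -0.062 to 0.078 for Mrps12 and -0.131 to 0.127 for Mrps36 in soleus DEX, -0.090 to 0.015 for Mrps12 between muscles in NT mice, and, for the difference in change, -0.100 to 0.078 for Mrpl12, -0.006 to 0.137 for Mrps12, -0.097 to 0.104 for Mrps18b, -0.000 to 0.118 for Mrps34 and -0.226 to 0.018 for Mrps36. The spread between libraries limits small changes, at depths of 18.8 M to 34.6 M counts. The common dispersion, edgeR's estimate of the spread beyond counting error, was 0.0379 in gastrocnemius and 0.0585 in soleus. Without the 3 libraries it was 0.00698 and 0.0187.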
